A study of Homo sapiens with 9 samples.

Results

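The ISG15 conjugation system is described here through 6 genes of the 26485 in the count table: ISG15, UBA7, UBE2L6, HERC5, HERC6 and USP18. They were taken by function, as the ubiquitin-like modifier with its activating enzyme (E1), conjugating enzyme (E2), ligases (E3) and protease, and all 6 passed the filter on low counts. No threshold was used, but the set was chosen by function with the measured RNA levels of addback cells against KO already known, so the contrasts with addback cells are given as descriptions with no p-value, and whether a member passed the threshold there only describes the set. The contrast of knockout with wild-type cells was tested.

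ISG15 is a small protein made of a tandem of ubiquitin-like folds, and type I interferon strongly raises its transcription. UBA7 activates it, UBE2L6 receives it, and HERC5 is the main human ligase that joins it to target proteins, often newly made ones. HERC6 is a close relative of HERC5 that serves as the main ISG15 ligase in mice, and USP18 removes ISG15 from its targets and also restrains signalling at the interferon receptor.

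HEK293 is an established human embryonic kidney cell line. The 9 libraries hold poly(A) RNA from 3 groups of 3: unmodified wild-type cells (WT), cells in which UBE3D was knocked out with CRISPR/Cas9 (KO), and the knockout cells with UBE3D put back (addback), which therefore carry the knockout as well. UBE3D encodes an E3 ubiquitin ligase, and the series asks how its loss changes gene expression and transcription past gene ends. The labels give no treatment or time, do not say whether the KO line is 1 clone or how UBE3D was put back, and mark every sample as pooled. Whether a group's libraries came from separate cultures is not stated, and p-values measure only the spread between these libraries, which may be technical. Levels are CPM (a gene's counts as a share of the library's effective size) scaled with factors from low-background genes (scaled CPM), as mean ± SD of 3 libraries unless stated.

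Total counts ran from 23088295 to 37508780 per library. WT and addback libraries held counts over 94.9% to 95.8% of 570 tissue-restricted genes, such as odorant receptors, against 14.0% to 17.2% in KO libraries. From these genes a background was estimated at 2.82% to 14.6% of the counts of each WT and addback library and 0% in KO libraries, which touches every comparison with KO. It was lowest in WT 1 (3.03%) and addback 1 (2.82%). UBE3D RNA was 22.6 ± 3.79 scaled CPM in WT, 14.3 ± 1.24 in KO and 3156 ± 311 in addback cells, so its RNA was still present in KO cells (KO against WT log2 -0.66 ± 0.13, edgeR adjusted p = 0.00313). All 9 HEK293 markers had counts in every library, with summed levels of 2262 to 2871 scaled CPM. Among them IRS4 was 842 in WT, 209 in KO and 335 in addback cells, while vimentin (VIM) was 653, 1326 and 961, so the groups also differed in genes typical of the line.

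The promoters of ISG15 and HERC5 are shown because both hold the letters of an interferon response element, the site that interferon-activated factors bind, within a window of 250 bases before to 50 after the gene start. The lines run 5′ to 3′ on the plus strand of GRCh38.p14 from 160 to 41 bases before the RefSeq start, at chr1:1013337-1013456 for ISG15 and chr4:88456959-88457078 for HERC5. Capitals mark every match to GAAA, any 2 bases and GAAA again, or to the reverse complement, TTTC, any 2 bases and TTTC again. Overlapping matches run together.
ISG15: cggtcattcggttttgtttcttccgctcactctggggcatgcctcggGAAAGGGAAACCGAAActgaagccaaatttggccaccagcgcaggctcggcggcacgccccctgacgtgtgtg
HERC5: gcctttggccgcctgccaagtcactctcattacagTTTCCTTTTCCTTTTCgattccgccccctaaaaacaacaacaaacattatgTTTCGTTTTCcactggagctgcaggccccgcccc

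ISG15 held 2 overlapping matches, which began 113 and 107 bases before the start. HERC5 held 3 matches on the other strand, which began 125, 119 and 74 bases before the start, the first 2 of them overlapping. Of 35116 RefSeq windows, 1255 (3.57%) held at least 1 match and 91 (0.259%) held 2 or more. The single HERC6 window and both UBE2L6 windows held no match, which says only that these letters are not in those windows. UBA7 and USP18 are named without a sequence. A match describes the sequence and was not tested as a site of binding.

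The modifier itself, ISG15 (ENSG00000187608.9, chr1:1013467-1014539 on hg38, plus strand), stood at 10.1, 9.82 and 7.92 scaled CPM in WT libraries 1 to 3. It stood at 14.1, 12.6 and 13.9 in KO libraries and at 349, 278 and 413 in addback libraries. The 3 groups did not overlap: WT was lowest, KO slightly higher, and addback far above both. The mean was 25.6 times that of KO (log2 4.68 ± 0.16) and 37.4 times that of WT (log2 5.21 ± 0.16). Both comparisons share the addback libraries. In bulk RNA, a higher level per cell and a larger share of cells that express a gene cannot be told apart.

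UBA7, the E1 that loads ISG15 (ENSG00000182179.12, chr3:49805205-49813958, minus strand), had the lowest level of the 6 in KO cells. It stood at 3.50, 18.6 and 8.37 scaled CPM in WT, at 0.694, 0.572 and 0.716 in KO and at 19.3, 24.6 and 32.0 in addback libraries. The WT libraries differed from each other more than for any other gene of the set, and WT 2 came close to the lowest addback library. The estimated background at UBA7 was 2.63, 7.53 and 13.5 scaled CPM in the WT libraries, above the whole signal of WT 3. In addback libraries it was 2.45, 10.8 and 10.8, which left 16.8, 13.8 and 21.2 scaled CPM. The log2 fold of addback over KO was 5.25 ± 0.61, and of addback over WT 1.31 ± 0.50, the one contrast with addback cells in which a member did not pass the threshold. The labels state no pairing of addback and WT libraries, which was taken only from the likeness of same-numbered ones. With the number as a block the fold of addback over WT was 1.51 and passed. It was 2.09 without WT 2, where it passed, and 2.12 ± 1.30 with the background subtracted, where it did not.

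The E2 enzyme UBE2L6 (ENSG00000156587.15, chr11:57551655-57568330, minus strand) stood at 3.26, 7.49 and 5.87 scaled CPM in WT. It stood at 5.15, 3.97 and 5.17 in KO libraries and at 63.6, 48.4 and 82.6 in addback libraries. WT and KO overlapped, and every addback library lay above both. The addback mean was 13.6 times that of KO (log2 3.77 ± 0.32) and 11.7 times that of WT (log2 3.55 ± 0.31).

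HERC5, the ligase that associates with ribosomes (ENSG00000138646.8, chr4:88457117-88506168, plus strand), stood at 49.2, 49.97 and 59.95 scaled CPM in WT. It stood at 41.4, 40.8 and 43.4 in KO libraries and at 167, 140 and 201 in addback libraries. Its relative HERC6 (ENSG00000138642.14, chr4:88378739-88443097, plus strand), 14019 bases upstream of HERC5, stood at 20.8, 25.01 and 30.9 in WT, 17.0, 17.7 and 15.4 in KO and 63.7, 57.2 and 76.8 in addback libraries. For both ligases the addback libraries were highest and KO lowest, with no overlap between groups. Addback over KO gave log2 2.01 ± 0.13 for HERC5 and 1.98 ± 0.16 for HERC6. Addback over WT gave 1.68 ± 0.13 and 1.37 ± 0.15, and the estimated background made up 12.9% to 44.7% of the HERC6 counts in WT libraries.

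The protease USP18 (ENSG00000184979.9, chr22:18149991-18177395, plus strand) stood at 27.2, 31.5 and 31.9 scaled CPM in WT. It stood at 25.8, 24.3 and 25.1 in KO libraries and at 137, 114 and 168 in addback libraries. The groups did not overlap, with a narrow gap between KO and WT and a wide one to addback. Addback over KO was log2 2.48 ± 0.13 and addback over WT 2.21 ± 0.13. A near-identical copy of USP18 lies elsewhere on chromosome 22, and how the authors' counting treated reads that fit both is not given in the sources used here, so the USP18 level is uncertain in that respect.

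**Figure D1:**
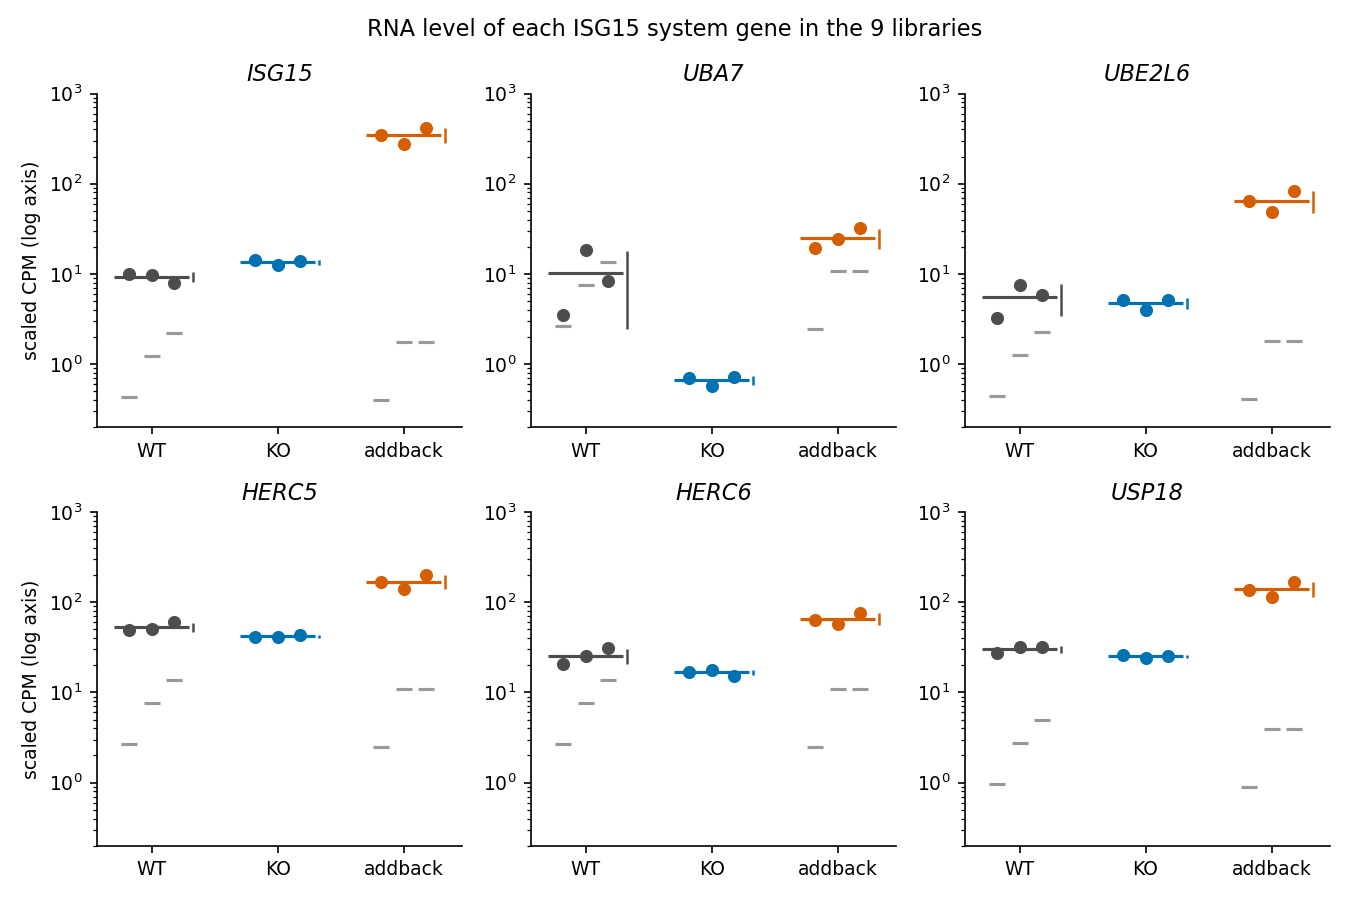
Scaled CPM of the 6 genes on a log axis, with 1 point per library (replicates 1 to 3 from left to right in each group), the mean as a horizontal line, ± SD as the vertical line, and the estimated background of each WT and addback library as a grey dash. Addback points are highest in all 6 panels, from 19.3 scaled CPM for UBA7 to 413 for ISG15, and only at UBA7 do the grey dashes reach the WT points.

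Read against all genes, 6 of 6 members passed the threshold upward in addback against KO, where 51.4% of the 21994 genes tested (18.5% of the low-background genes) did so and 5.79% passed downward (38.0% and 21.8% with TMM factors over all genes), and the median log2 fold was 3.12 against 0.49. In addback against WT, 5 of 6 passed upward, where 4.64% of all genes (12.5% of the low-background genes; 1.71% with TMM factors over all genes) did, and the median was 1.94 against 0.01. Since the members were taken with these values known, the counts only describe the set. By size of the fold in addback over KO, UBA7 ranked 3875, ISG15 4319, UBE2L6 5096, USP18 6343, HERC5 6890 and HERC6 6937 of 21994 genes, so they were not near the top there. That ranking includes genes with almost no counts in KO libraries and a high share of background elsewhere. Examples are the immune marker LILRA4 (log2 10.69) and the fibroblast marker COL1A2 (9.64), neither a low-background gene. No rank was taken with the background subtracted. By size of the fold in addback over WT, ISG15 ranked 8, UBE2L6 20, USP18 58, HERC5 104, HERC6 158 and UBA7 180 of 21994 genes, with UBE3D at 1. With the estimated background subtracted, the folds of addback over KO were 4.74 for ISG15, 4.77 for UBA7, 3.81 for UBE2L6, 2.02 for HERC5, 1.86 for HERC6 and 2.52 for USP18. The largest shift was that of UBA7, from 5.25. In WT 1 and addback 1 alone, set beside the 3 KO libraries, the folds of addback over WT were 5.13, 2.47, 4.30, 1.77, 1.62 and 2.35 in the same order.

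**Figure D2:**
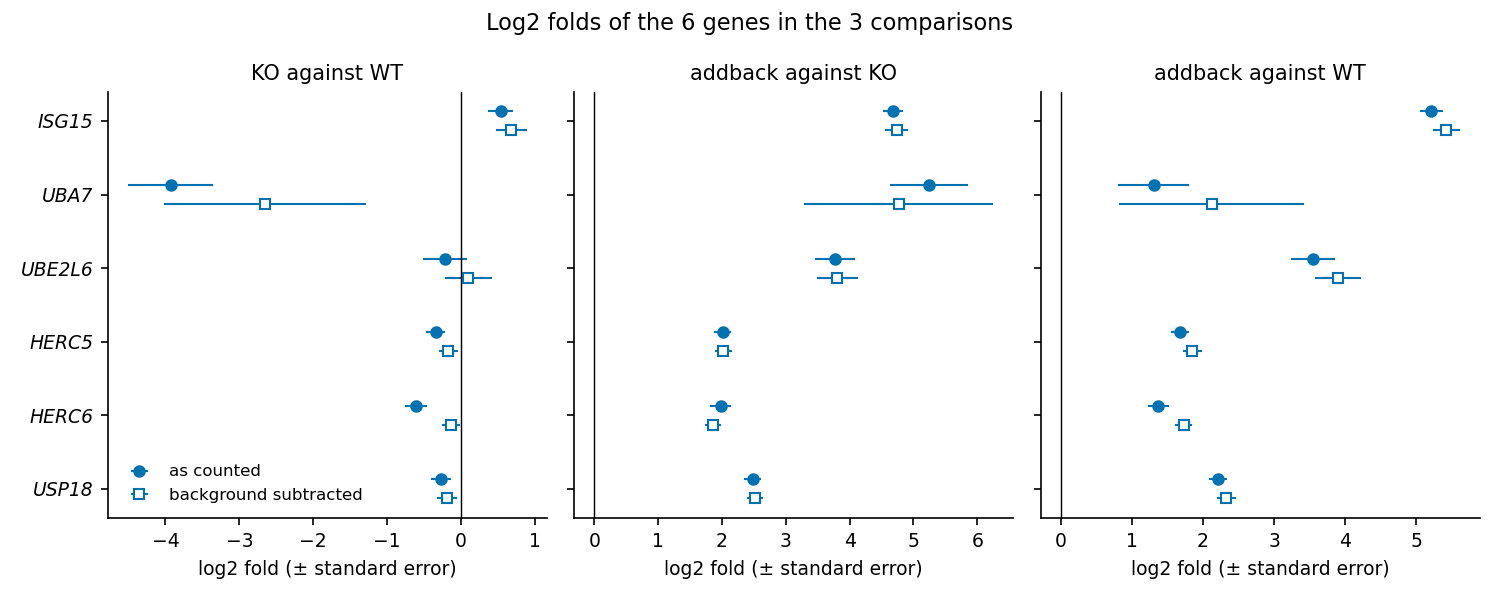
Log2 folds ± standard error of the 6 genes in the 3 comparisons, from the counts as deposited (filled circles) and with the estimated background subtracted (open squares). Both sets lie close together for addback against KO, while in KO against WT the negative values of HERC5, HERC6 and USP18 shrink toward 0 once the background is removed (with TMM factors over all genes HERC5 and USP18 are positive).

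The addback libraries also differed among themselves in a shared order. In ISG15, UBE2L6, HERC5, HERC6 and USP18, addback 3 was the highest and addback 2 the lowest of the 3, and UBA7 showed that order once the background was subtracted. ISG15 ran from 278 to 413 and UBE2L6 from 48.4 to 82.6 scaled CPM across them. UBE3D did not share this order, with 3333, 3338 and 2797 scaled CPM in addback 1, 2 and 3. Its lowest value was in the library where the 5 genes were highest.

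Levels of different genes were compared per kilobase of summed exon length. In WT cells HERC5 (15.1 CPM per kilobase), USP18 (14.8) and ISG15 (13.9) were level with each other, their ranges overlapping. HERC6 followed at 6.58, and UBE2L6 (3.18) and UBA7 (3.06) overlapped at the bottom. These WT levels include the estimated background, which made up 68.49% of the UBA7 counts. With it subtracted, the WT means were 4.505 for HERC6, 2.422 for UBE2L6 and 0.6804 for UBA7. UBA7 then ran from -1.561 in WT 3 to 3.34 in WT 2, and UBE2L6 from 1.618 to 3.577, so the ranges of these genes still overlapped. In KO cells ISG15 led alone at 20.3, USP18 (12.3) and HERC5 (11.9) overlapped, and HERC6 (4.29), UBE2L6 (2.73) and UBA7 (0.199) followed without overlap. In addback cells the order was ISG15 521, USP18 68.7, HERC5 48.1, UBE2L6 37.2, HERC6 17.0 and UBA7 7.64. The ranges of USP18 and HERC5, and of HERC5 and UBE2L6, overlapped, but within each of the 3 libraries the order was the same.

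ISG15 thus took a different share of the summed level of the 6 transcripts in each group. It made up 29.8%, 24.3% and 20.3% in the WT libraries, 39.9%, 38.2% and 39.7% in the KO libraries and 75.2%, 74.1% and 74.1% in the addback libraries. The groups did not overlap, and with the background subtracted the WT shares were 30.7%, 25.6% and 20.7% and the addback shares 75.4%, 75.6% and 75.1%. ISG15 outweighed its enzymes and protease together in addback cells, whereas in WT 3 HERC5 (29.2%) and USP18 (26.8%) each had a larger share than ISG15, as USP18 (25.5%) did in WT 2.

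**Figure D3:**
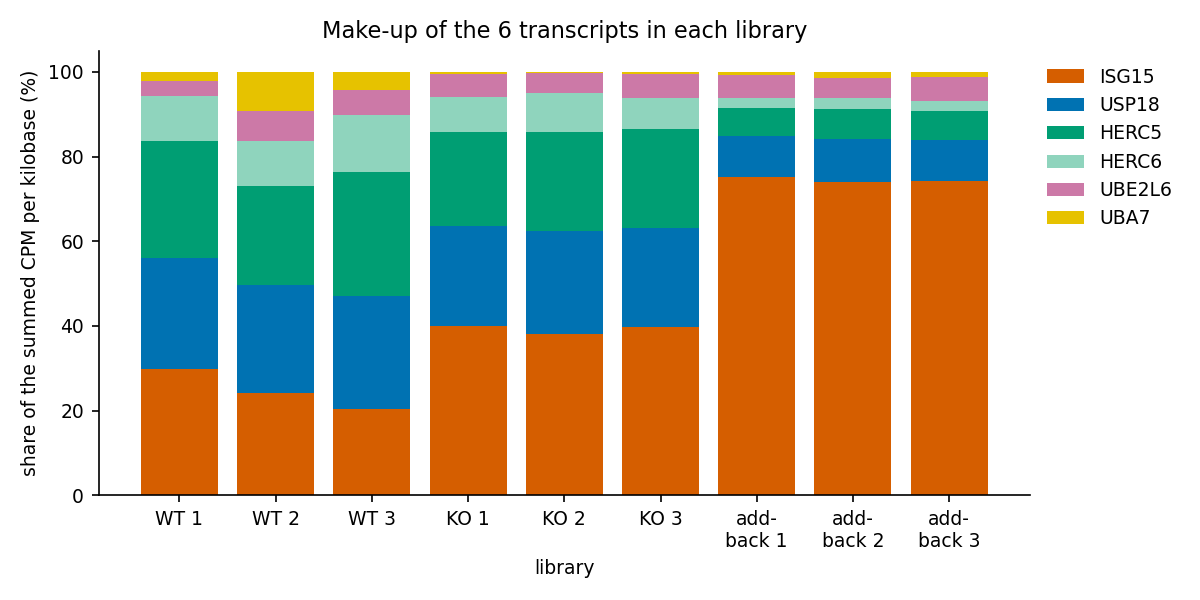
Share of each gene in the summed CPM per kilobase of the 6 genes, by library, as stacked bars that reach 100%. ISG15 fills 74.1% to 75.2% of the addback bars, 38.2% to 39.9% of the KO bars and 20.3% to 29.8% of the WT bars.

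KO against WT compares the knockout cells with unmodified cells, which also differ in estimated background and in genes such as IRS4 and VIM. The part of UBE3D loss in a difference cannot be told apart. ISG15 rose slightly in KO, by log2 0.54 ± 0.17 (edgeR adjusted p = 0.0206), and lay higher in 3 of 3 KO libraries. UBA7 (log2 -3.93 ± 0.58, adjusted p = 0.00133), HERC6 (-0.61 ± 0.15, adjusted p = 0.00826) and HERC5 (-0.34 ± 0.13, adjusted p = 0.0456) were lower. USP18 (-0.27 ± 0.13, adjusted p = 0.101) and UBE2L6 (-0.22 ± 0.30, adjusted p = 0.547) did not pass. So 4 of 6 members passed, 1 upward and 3 downward, where 62.6% of all genes tested passed, 8.08% upward and 54.5% downward. Among low-background genes alone, 24.6% passed upward and 26.5% downward. That class is set from the mean background of WT and addback libraries and the mean CPM of all 9 libraries. Within WT alone the background made up 12.8% of ISG15, 14.3% of HERC5 and 21.9% of UBE2L6 counts, above the limit of 10%. The class therefore gives no separate check of these 3 in KO against WT. With TMM factors over all genes 24.2% passed upward and 37.4% downward, and HERC5 (0.04), USP18 (0.11) and UBE2L6 (0.18) changed sign, HERC6 was at -0.23 and ISG15 at 0.90. The median member fold was -0.30 and that of all genes -0.50. In the main fit the share of members passing, 4 of 6, lies near the 62.6% of all genes, and the 3 of 6 downward near 54.5%. By the exact two-sided permutation test of the 3 KO against the 3 WT libraries p was 0.1, the smallest the design allows, for every member but UBE2L6 (exact p = 0.6).

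The estimated background differs between these groups and moves with the downward values. Subtracting it left HERC6 at 18.2, 17.3 and 17.1 scaled CPM in WT, a mean of 17.5 ± 0.556 beside 16.7 ± 1.22 in KO (log2 -0.14, edgeR adjusted p = 0.428). HERC5 came to 45.1 ± 2.35 in WT beside 41.9 ± 1.35 in KO (log2 -0.17, edgeR adjusted p = 0.346). UBA7 came to 0.866, 11.1 and -5.17 scaled CPM in the WT libraries, so it ran from below 0 to well above KO (log2 -2.65 ± 1.37, edgeR adjusted p = 0.163; exact permutation p = 0.7). ISG15 came to 7.98 ± 2.03 in WT, and its rise in KO grew to log2 0.68 (edgeR adjusted p = 0.0349). In WT 1 and addback 1 alone beside the KO libraries, the fold of ISG15 was 0.43, of UBA7 -2.38, of UBE2L6 0.56, of HERC5 -0.23, of HERC6 -0.32 and of USP18 -0.12. There the lone WT and addback libraries are assumed to vary as the KO libraries do, so only folds are given.

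The ISG15 rise in KO was close to the threshold. It did not pass without KO 1 (edgeR adjusted p = 0.053), without KO 3 (adjusted p = 0.0543) or without WT 3 (adjusted p = 0.078), nor when the fit was limited to the low-background class (adjusted p = 0.0642). Its fold stayed positive under every alternative run, from 0.43 to 0.90. HERC5 passed only without WT 1, addback 2 or addback 3, with adjusted p from 0.0149 to 0.15 over the 9 left-out libraries (edgeR), while UBA7 and HERC6 passed in all 9 and USP18 passed without addback 2 or addback 3. In the authors' deposited table for KO against WT, ISG15 was at log2 0.71 ± 0.19 and UBA7 at -3.57 ± 0.50, while UBE2L6, HERC5 and USP18 lay between -0.04 and 0.05 and HERC6 at -0.26. Their deposited table for addback against KO gave 4.37 for ISG15, 4.89 for UBA7, 3.45 for UBE2L6, 1.71 for HERC5, 1.68 for HERC6 and 2.18 for USP18.

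**Figure D4:**
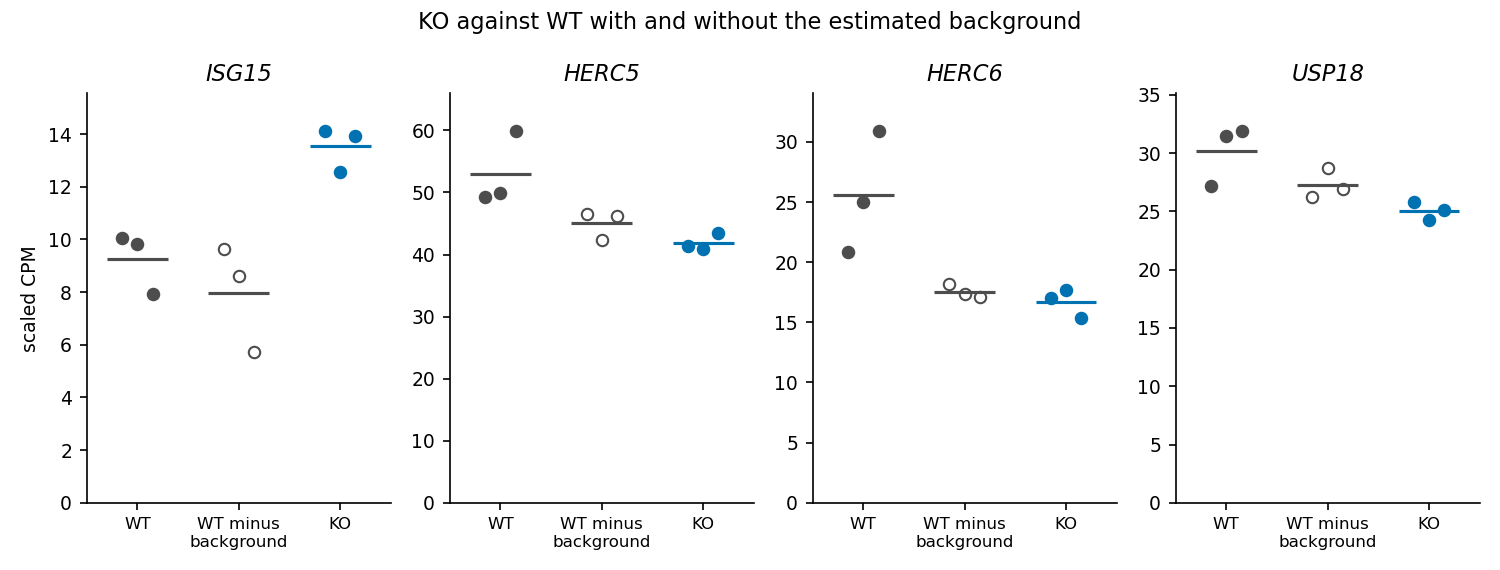
Scaled CPM of 4 members in WT libraries (filled grey), in WT libraries after subtraction of the estimated background (open) and in KO libraries (blue), with the mean as a line and each axis starting at 0. ISG15 lies higher in KO both ways, while the HERC6 mean of 25.6 scaled CPM in WT falls to 17.5 after subtraction, next to 16.7 in KO.

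The genes beside the members were read in the same way. ISG15 lies between HES4, a transcriptional repressor gene, and AGRN, which encodes the matrix protein agrin. HES4 was 67.2 scaled CPM in KO and 149 in addback cells (log2 1.15 ± 0.12) and AGRN 303 and 568 (log2 0.91 ± 0.05), far less than the 25.6-fold of ISG15. Both were lower in KO than in WT, HES4 by log2 -0.52 (edgeR adjusted p = 0.00498) and AGRN by -0.47 (adjusted p = 0.0005), opposite to ISG15. PPM1K, a mitochondrial phosphatase gene beside HERC6, went from 29.6 to 47.5 scaled CPM (log2 0.68 ± 0.09). TRAIP, a ubiquitin ligase gene beside UBA7, was 25.3 in KO and 30.1 in addback cells. CDHR4, SMTNL1 and TMEM191B had mean WT levels below their estimated background, and TUBA8 was 6.38 in WT with an estimate of 4.56. SERPING1, an interferon-responsive complement inhibitor beside UBE2L6, was 3.21 in KO and 12.3 in addback cells, with an estimated background of 4.57 in the latter. PYURF, beside HERC5, had no counts in any library, though its estimated background was 0.89 scaled CPM in WT and 0.90 in addback libraries. Why even background counts were missing was not tested, so the 0 does not show that its RNA was absent.

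The authors' deposited tables of transcription past gene ends hold 2541 regions for KO against WT and 2396 for addback against KO, and 0 of either are named for a member. One region of TUBA8 (chr22:18131732-18149992, plus strand) runs up to the first bases of USP18 on the same strand. In those tables it was at log2 -0.13 ± 0.11 in KO against WT (the authors' adjusted p = 0.377) and at 0.56 ± 0.11 in addback against KO (the authors' adjusted p = 9.26e-07). USP18 itself was at 2.48 in the second comparison, by the edgeR fit. The region downstream of HES4 runs away from ISG15, and it was higher in KO than in WT (0.69 ± 0.08, the authors' adjusted p = 1.71e-16). The 2 region tables may not be on one scale of shrinkage, so their folds were not set against each other.

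Counts in this and the following lists are read against all genes tested. Of these, 51.4% passed upward and 5.79% downward in addback against KO, and 8.08% and 54.5% in KO against WT. Among low-background genes alone, 18.5% passed upward over KO, and 24.6% upward and 26.5% downward in KO against WT. Among other genes of ISG15 conjugation and removal, TRIM25 had the largest fold. TRIM25, another interferon-induced ligase reported to act with ISG15, stood at 118 scaled CPM in WT, 114 in KO and 394 in addback cells (addback over KO log2 1.79 ± 0.09). The other 4 genes of the list of alternative ligases and E2 enzymes (ARIH1, UBE2E1, UBE2E2 and UBE2L3) lay between -0.29 and 0.15. In that list 1 gene passed upward and 1, UBE2L3, downward in addback against KO, and in KO against WT 2 of 5 passed upward. Of the 6 other proteases reported to act on ISG15, USP21 passed upward at 0.18 and USP5 downward at -0.13 in addback against KO, and 2 of 6 passed downward in KO against WT. With the background subtracted 0 of 6 passed in either comparison by edgeR. At an unadjusted p under 0.05 there were then 2 in addback against KO and 1 in KO against WT. USP18 was thus the only protease of those examined with a fold above 1 on the log2 scale.

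Among the partners of USP18 at the interferon receptor, STAT2 had the largest fold. STAT2, which brings USP18 to the receptor, stood at 71.2 scaled CPM in WT, 57.8 in KO and 212 in addback cells (addback over KO log2 1.88 ± 0.12). The receptor chains IFNAR1 and IFNAR2 were at -0.18 and 0.38, and the receptor's kinases JAK1 and TYK2 at -0.04 and 0.16. Over the 6 genes 3 passed upward and 1 downward in addback against KO, and 1 upward and 2 downward in KO against WT.

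Among 11 ISG15 substrates and genes that interferon raises together with ISG15, 10 passed upward in addback against KO, with a median log2 fold of 3.10, and 10 in addback against WT. Of all genes tested, 51.4% passed upward over KO and 4.64% over WT (18.5% and 12.5% of low-background genes). IFIT3 (log2 7.59 ± 0.33), IFIT1 (7.53 ± 0.25), RSAD2 (7.21 ± 0.53) and BST2 (6.26 ± 0.39), all antiviral effectors, had larger folds over KO than any member. IFIT1 went from 4.31 scaled CPM in KO to 797 in addback cells, and BST2 from 0.715 to 55.8. In KO against WT, 7 of the 11 passed downward and 1, PCNA, upward, where 54.5% and 8.08% of all genes tested did. Among low-background genes 26.5% passed downward there. With the background subtracted 2 of the 11 passed in KO against WT.

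The genes of parallel modifier pathways had smaller folds, with UBD as the exception. Among 14 other ubiquitin-like modifiers, 2 passed upward and 7 downward in addback against KO, with a median log2 fold of -0.14. UBD, also called FAT10, was at 4.95 from 0.0652 scaled CPM in KO to 2.11 in addback cells, but it was 1.88 in WT and is not a low-background gene. Apart from UBD their folds ran from RPS27A at -0.28 to SUMO3 at 0.13. In KO against WT 7 of the 14 passed upward and 3 downward. Of 9 other E1 enzymes, 1 passed upward (ATG7, 0.70) and 2 downward (UBA2, -0.11, and SAE1, -0.14) in addback against KO, and in KO against WT 2 passed in each direction. Of 4 other HERC ligases, HERC1 (0.66) and HERC3 (0.46) passed upward over KO and 3 passed downward in KO against WT. Of all genes tested, 51.4% and 54.5% did so. None of those 4 is a low-background gene, and with the background subtracted 0 of 4 passed in addback against KO by edgeR, with 1 at an unadjusted p under 0.05.

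**Figure D5:**
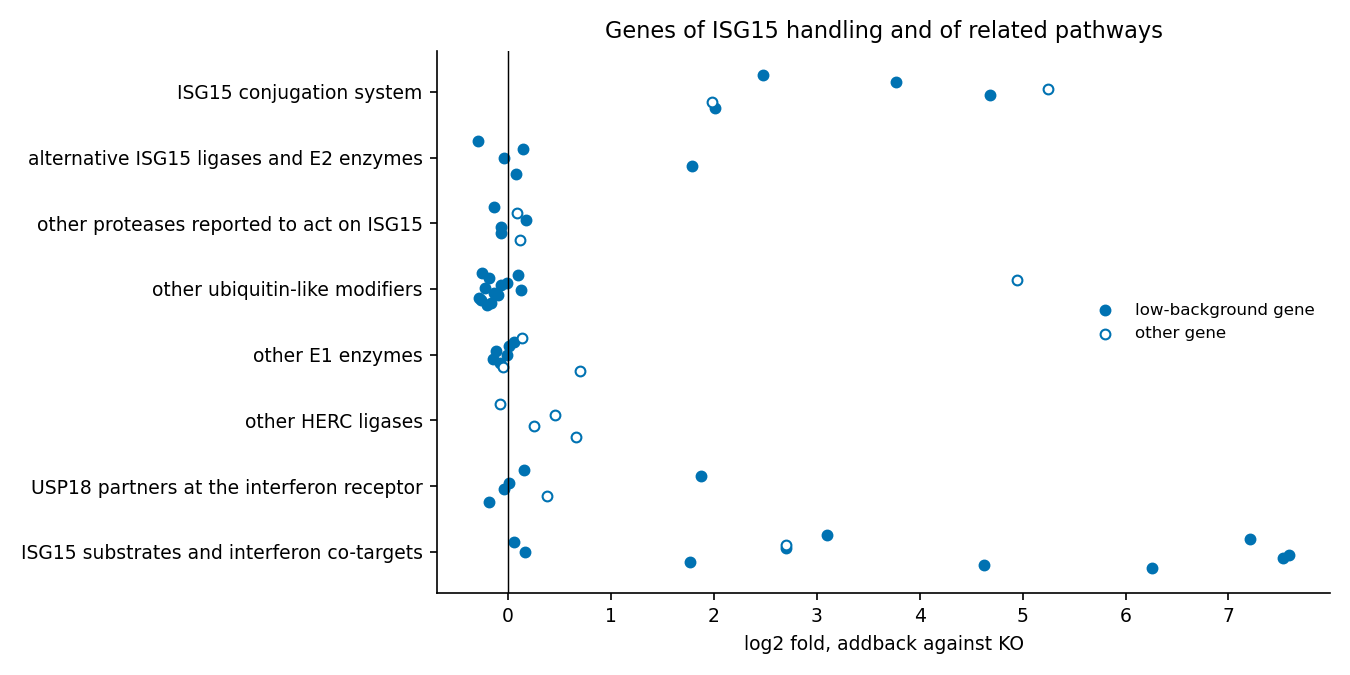
Log2 fold of addback over KO for the 6 members and for the genes of 7 related lists, 1 point per gene, filled for low-background genes and open for the others. The members lie between 1.98 and 5.25, TRIM25 and STAT2 stand apart from the rest of their lists at 1.79 and 1.88, and the other E1 enzymes and HERC ligases lie between -0.14 and 0.70.

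Interferon genes themselves were read from their counts, because KO libraries held few or none of them: IFNE had 9, 10 and 7 counts there, and the other 9 genes had mean levels of at most 0.0463 scaled CPM. IFNB1, the interferon that most cells make first, had 0 counts in all 3 KO libraries, which allows up to 3 counts in each. It had 13, 19 and 34 counts in WT libraries, where the background estimate was 14.5, 47.7 and 55. In addback libraries it had 36, 74 and 86 counts against estimates of 12.8, 60.6 and 57.7, so it lay above the estimate in 3 of 3 addback libraries and in none of the WT libraries. IFNL2, a type III interferon gene, had 137, 220 and 236 counts in addback libraries against estimates of 13.7, 64.9 and 61.7, and 30, 216 and 60 in WT libraries against 15.5, 51.1 and 58.8. IFNA2 had 32, 153 and 198 counts in addback libraries against 12.9, 61.0 and 58.0, and 29, 118 and 129 in WT libraries against 14.5, 48.0 and 55.3, so a single gene can lie above its estimate in both groups. The 10 ligand genes passed downward in KO against WT and upward in addback against KO, where 54.5% and 51.4% of all genes tested did. None of the 10 is a low-background gene. In addback against WT 0 of 10 passed by edgeR, 0 of 10 had an unadjusted p under 0.05, and DESeq2 called 0 of 10. With the background subtracted 6 of the 10 could be fitted and 1, IFNB1, passed. Its WT counts all lie below the estimate and were set to 0 by the subtraction. That call therefore cannot show a rise, and no fold is given.

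The markers of other cell types were at their lowest in KO libraries. The summed level of 15 immune markers was 28.7 to 35.8 scaled CPM in KO, 48.2 to 157 in WT and 58.9 to 130 in addback libraries, with 2 to 5 of the 15 at 0 in KO libraries, LILRA4 and PPBP in all 3, and none at 0 in the others. HBB, a red cell gene on that list, was 27.5 scaled CPM in KO and so made up most of the KO sum. The background estimate summed over the same genes was 14.7 to 64.7 in addback and 15.8 to 81.3 in WT libraries. The 9 fibroblast and endothelial markers summed to 48.3 to 55.7 in KO, 74.7 to 204 in WT and 89.7 to 208 in addback libraries, with COL1A1 at 44.2 of the KO sum. For both lists the ranges of WT and addback libraries overlapped. The part of these markers in the members' levels was not tested. PTPRC, which encodes the common leukocyte antigen CD45, was 20.7 ± 20.4 scaled CPM in WT, 0.33 ± 0.098 in KO and 11.0 ± 6.37 in addback cells. Its WT libraries ran from 6.55 to 44.0, and the estimated background made up 54.9% of its WT counts. It did not pass in addback against WT.

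Over the 9 libraries, 5 genes of 13786 were most like ISG15 by Pearson's correlation of log2(scaled CPM + 0.1). They were SHISA5 (r = 0.9974), ADAR (0.9953), IFIT5 (0.9928), DTX3L (0.9913) and HLA-B (0.9897). The 9 points fall into 3 groups, so r mostly reflects how alike the group levels are, and no p is given. SHISA5 was 59.9 scaled CPM in WT, 66.0 in KO and 157 in addback cells, and IFIT5 was 33.9, 35.5 and 228. Both were highest in addback cells, as ISG15 was, with smaller folds, a likeness for which they were picked. KO and WT differed little, by log2 0.14 for SHISA5 and 0.07 for IFIT5, beside 0.54 for ISG15. Among the other members r was 0.976 for USP18, 0.9738 for UBE2L6, 0.9575 for HERC5, 0.9002 for HERC6 and 0.6491 for UBA7.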

How the data were processed

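Poly(A) RNA-seq of 9 HEK293 libraries (KO, addback, WT; 3 each) was analysed; column names with KO.U were taken as addback. Per the submitters' processing notes, cutadapt 1.8.1, STAR 2.5.2b and DESeq2 were used on hg38; the sources used here name neither the counting program nor its annotation. The deposited table holds whole-number counts per gene and the gene length in bases (unit: other). The authors' deposited result tables hold base means (unit: signal), log2 folds with standard errors, test statistics (unit: score), p-values and region lengths. There were 0 unused sample columns.

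Counts of 21994 genes passing filterByExpr were fitted with edgeR 4.0.16 (R 4.3.3, robust quasi-likelihood, all 9 libraries, genotype only; Benjamini-Hochberg over all genes, threshold 0.05), a script tested on simulated data. TMM factors came from 5808 low-background genes. Background per kilobase of coding sequence is the median over 556 tissue-restricted genes, and it was multiplied by each gene's coding length (GENCODE release 29). A low-background gene has a mean estimated background in WT and addback libraries of at most 10% of its mean CPM over all 9 libraries. Its coding length is at least 10% of its exon length. DESeq2 1.42.0, other scalings, no filter, background subtraction at 1 and 2 times the estimate, left-out libraries and a replicate block were alternatives, and WT 1 and addback 1 alone was added after seeing the data. Exact permutation tests used 3 against 3 libraries.

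The members, the lists and the scaling were chosen with earlier results of these data known. Genes named are the members, list genes with adjusted p under 0.05 and an absolute log2 fold of at least 1 against KO or between KO and WT (at most 4 a list), neighbours, UBE3D and the 5 genes most like ISG15; other list genes were named after their values were seen. Residuals of same-numbered libraries correlated at 0.86, 0.57 and 0.72 for addback and WT, taken as pairs, and at -0.05 to 0.02 in both contrasts with KO; over low-background genes the values were 0.5, 0.2 and 0.6 for addback and WT, 0.03 to 0.09 for KO and WT and 0.04 to 0.21 for addback and KO. The labels state no such pairs, and in WT and addback libraries the background also follows the number, lowest in 1. Promoter sequences are RefSeq's (GRCh38.p14), with 4 of 6 members matched.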

Additional observations from a re-analysis of the deposited data

How the results depend on the processing

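In both contrasts with addback cells, every member kept its direction under all alternatives run. The count of members passing was 6 for addback against KO when each library was left out in turn. For addback against WT it was 5 to 6, and 6 also with DESeq2, UBA7 being added. With the background at 2 times the estimate, 5 of 6 passed over KO, UBA7 being lost. With the replicate block, 6 members passed in either contrast with addback cells and 5 in KO against WT, USP18 being added; apart from UBA7 and USP18 the block changed no call. In KO against WT the 4 members passing became 2 with TMM factors over all genes, 2 with DESeq2, 1 with the background subtracted, 1 with it subtracted at 2 times the estimate, and 0 of 4 fitted with low-background genes only, where 2 had an unadjusted p under 0.05 and HERC6 and UBA7 are not fitted; ISG15, HERC5 and UBE2L6 exceed the 10% background limit within WT, so that fit is no check of them. Leaving out single libraries gave 2 to 5, with 2 without KO 1, KO 3 or WT 3. Direction turned for UBE2L6 (0.18 with TMM over all genes, 0.10 and 0.56 with the background subtracted once and at 2 times the estimate, 0.08 without WT 2 and -0.49 without WT 1 as the range over left-out libraries, 0.09 with DESeq2, 0.56 with WT 1 and addback 1 alone), HERC5 (0.04 with TMM over all genes and 0.04 at 2 times the background), HERC6 (0.71 at 2 times the background) and USP18 (0.11 with TMM over all genes, 0.02 with DESeq2); the cause was not tested. The median log2 fold of all genes in KO against WT was -0.50, -0.12 with TMM over all genes and -0.34 with upper quartile factors. Depth limits UBA7 in KO, with 16 to 28 counts a library.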
